A study of Mus musculus with 6 samples.

Results

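Transcripts of 10 genes of bone morphogenetic protein (BMP) signalling were measured on arrays of valproic acid (VPA) and control samples of mouse cells. The titles name them as prostate cancer cells, while other labels name stem cells. The genes were the antagonists Chrdl1 and Grem1, the ligands Bmp4 and Bmp7, the receptor Bmpr1a, the targets Id1, Id2 and Id3, and the inhibitory Smads Smad6 and Smad7, which are themselves targets. They make up 10 of 19938 genes with a value. The set was chosen by the VPA minus control difference of Chrdl1, which was higher with VPA in these same arrays, and the other 9 genes were added for their place in the pathway. One probe set stood for each gene, that with 1 gene symbol and the highest mean over the 6 arrays. The VPA minus control differences of the 10 genes are therefore given as a description with their errors, and no p-value is given for them.

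VPA, a drug against epilepsy, inhibits the class I histone deacetylases, which remove acetyl groups from histones. The titles name 3 VPA and 3 control samples of prostate cancer cells, each on its own Affymetrix mouse Gene 1.0 ST array. For the same samples, the strain and cell type fields give undifferentiated stem cells of Stra8-EGFP/Rosa26 for the VPA samples and differentiated stem cells of 129SV for the control samples. Treatment, strain and cell type thus divide the samples in one way and cannot be told apart from the labels, and neither dose, time nor cell line is named in the labels.

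BMPs are secreted ligands of the TGF-beta superfamily that bind pairs of type I and type II receptor kinases. The type I receptor phosphorylates Smad1, Smad5 and Smad9, which join Smad4 and activate genes such as those of the Id family. Id proteins lack a DNA-binding region and hold E proteins away from DNA, which restrains differentiation in many lineages. Antagonists of the chordin and gremlin families bind the ligand outside the cell, and Smad6 and Smad7 close a negative feedback inside it. In the prostate, BMP signalling is known as a brake on ductal growth and branching in the developing gland.

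The promoters of 6 of the 10 genes were matched by symbol in the RefSeq table of assembly GRCm38.p6. Shown are the 250 bases before the transcription start of Grem1, the antagonist that lay lower with VPA, and of Id2, Id3 and Smad6, through which BMP signalling is commonly read. Capitals mark GGCGCC, a GC-rich element bound by Smad1 and Smad5, and the Smad box CAGAC, or GTCTG on the other strand.
Grem1, chr2:113758649-113758898, minus strand: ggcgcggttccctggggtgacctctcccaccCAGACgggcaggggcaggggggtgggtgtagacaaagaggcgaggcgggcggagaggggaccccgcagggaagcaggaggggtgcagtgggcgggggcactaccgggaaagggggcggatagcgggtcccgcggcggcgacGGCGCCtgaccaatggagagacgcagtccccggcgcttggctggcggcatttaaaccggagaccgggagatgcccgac
Id2, chr12:25096093-25096342, minus strand: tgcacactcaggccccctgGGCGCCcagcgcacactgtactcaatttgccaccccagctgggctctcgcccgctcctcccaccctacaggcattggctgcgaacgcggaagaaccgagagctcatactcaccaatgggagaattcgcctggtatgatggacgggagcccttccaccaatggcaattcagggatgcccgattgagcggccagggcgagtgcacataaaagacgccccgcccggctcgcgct
Id3, chr4:136143572-136143821, plus strand: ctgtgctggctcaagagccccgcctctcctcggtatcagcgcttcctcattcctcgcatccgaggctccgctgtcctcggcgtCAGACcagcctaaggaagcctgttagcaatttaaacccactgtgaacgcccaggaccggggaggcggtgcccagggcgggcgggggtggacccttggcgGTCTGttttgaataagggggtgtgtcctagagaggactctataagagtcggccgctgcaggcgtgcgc
Smad6, chr9:64022060-64022309, minus strand: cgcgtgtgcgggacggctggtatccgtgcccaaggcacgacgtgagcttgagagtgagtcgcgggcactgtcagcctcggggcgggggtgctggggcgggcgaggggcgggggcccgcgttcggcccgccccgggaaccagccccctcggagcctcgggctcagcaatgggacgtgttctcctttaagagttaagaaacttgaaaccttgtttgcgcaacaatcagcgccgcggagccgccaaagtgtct
The GGCGCC letters begin 78 bases before the start of Grem1 and 231 bases before that of Id2, and they occur in 9.59% of 32841 RefSeq promoter windows of this length. The Smad box begins 219 bases before the start of Grem1 and 167 and 68 bases before that of Id3, and 42.2% of the windows hold it. Neither was found in the Smad6 window, which holds 4 GC boxes (GGGCGG, both strands, in 32.7% of the windows). The Id3 window holds 2 GC boxes, which overlap each other, the Grem1 window holds 3 and the Id2 window 1. E-boxes (CANNTG, both strands, in 66.2% of the windows) numbered 1 in the Id2 window and 0 in those of Grem1, Id3 and Smad6. All 4 windows were richer in G and C, at 62.8% for Id2 and Id3, 66.8% for Smad6 and 72% for Grem1, than the median window at 52.4%. Of the matched windows not shown, that of Bmpr1a holds GGCGCC, beginning 198 bases before the start, and no Smad box. This Bmpr1a window lies inside the outer limits of the gene in RefSeq. The Bmp4 window holds neither element. None of these matches shows that a factor binds there. The start that the table gives for Smad6 lies inside the outer limits of the gene in RefSeq, and its window overlaps the gene's end at 64022085.

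The arrays resembled each other closely. Their log2 medians lay between 7.15 and 7.18, and Pearson correlations across genes ranged from 0.9896 to 0.9963, with genes not being independent replicates. VPA replicate 3 was as close to the control arrays, at 0.9940 to 0.9952, as to the other VPA arrays, at 0.9948 and 0.9955. The prostate label was set against markers. The 11 prostate and epithelial markers reported here had VPA means from 3.50 to 7.93 and control means from 3.55 to 7.88. The 10 stromal and fibroblast markers had VPA means from 4.15 for Lum to 14.03 for Dcn, both matrix proteoglycan genes, and control means from 4.16 to 14.10. The 12 embryonic stem cell markers had VPA means from 4.22 for Zfp42 to 11.26 for Sox2 and control means from 4.36 to 11.58. Besides Sox2, Klf4 lay well above the array medians, at 10.33 in VPA and 10.22 in control arrays. Pou5f1 and Nanog lay below the medians, with VPA means of 5.27 and 6.14 and control means of 5.63 and 6.35. Probe sets differ in affinity and the values carry no detection call, so absence cannot be read from them. No marker of the epithelial, stromal, embryonic stem cell, leukocyte or endothelial lists passed limma's test at an adjusted p under 0.05. The lowest p of each list belonged to Epcam at 0.29, Pdgfrb at -0.36, Fgf4 at -0.33, Ptprc at -0.22 and Tek at 0.42 on the log2 scale (adjusted p 0.1, 0.0923, 0.0997, 0.304 and 0.182). The second lowest belonged to Krt8 at -0.31, Fap at -0.30, Esrrb at -0.20, Cd3e at -0.19 and Vwf at -0.20 (adjusted p 0.323, 0.141, 0.22, 0.394 and 0.301). Averaged over the 10 stromal markers, the log2 values were 9.65, 9.56 and 9.60 in VPA replicates 1, 2 and 3, against 9.76, 9.75 and 9.67 in the control replicates. For the 12 embryonic stem cell markers they were 6.67, 6.80 and 6.83 in the VPA replicates, against 7.01, 6.88 and 6.94 in the control replicates. The part of these shifts in the results below was not tested.

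The antagonists differed in opposite directions. Chrdl1 (probe set 10607124; chromosome X, 143285674 to 143394263, GRCm38.p6) encodes chordin-like 1, a secreted protein that binds BMP4 and keeps it from its receptors. Its log2 values were 9.02, 8.69 and 8.73 in VPA replicates 1, 2 and 3, against 7.56, 8.23 and 7.78 in control replicates 1, 2 and 3. All 3 VPA arrays lay above all 3 control arrays, and control replicate 2 came nearest to them. The means were 8.81 ± 0.18 in VPA and 7.86 ± 0.34 in control arrays (SD, n = 3 each), a log2 difference of 0.96 (SE 0.163), which is 1.94-fold (95% interval 1.51 to 2.5). Of all genes, 0.341% differed by more in either direction. This rank is no independent support, as the difference of Chrdl1 was used to choose the set.

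Grem1 (probe set 10485948; chromosome 2, 113748675 to 113758648) encodes gremlin 1, a secreted antagonist of BMP2, BMP4 and BMP7. It had log2 values of 7.18, 7.19 and 7.07 in the VPA arrays, against 7.61, 7.79 and 7.37 in the control arrays. Every VPA array lay below every control array, and the VPA arrays lay close together, within 0.12 of each other against 0.42 in the control arrays. The means were 7.15 ± 0.07 in VPA and 7.59 ± 0.21 in control arrays (SD, n = 3 each), a log2 difference of -0.44 (SE 0.113, 95% interval from -0.70 to -0.19). Grem1 had 0.736 of its control level with VPA. Both means lay near the array medians, and the values carry no detection call by which to judge such levels.

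**Figure D1:**
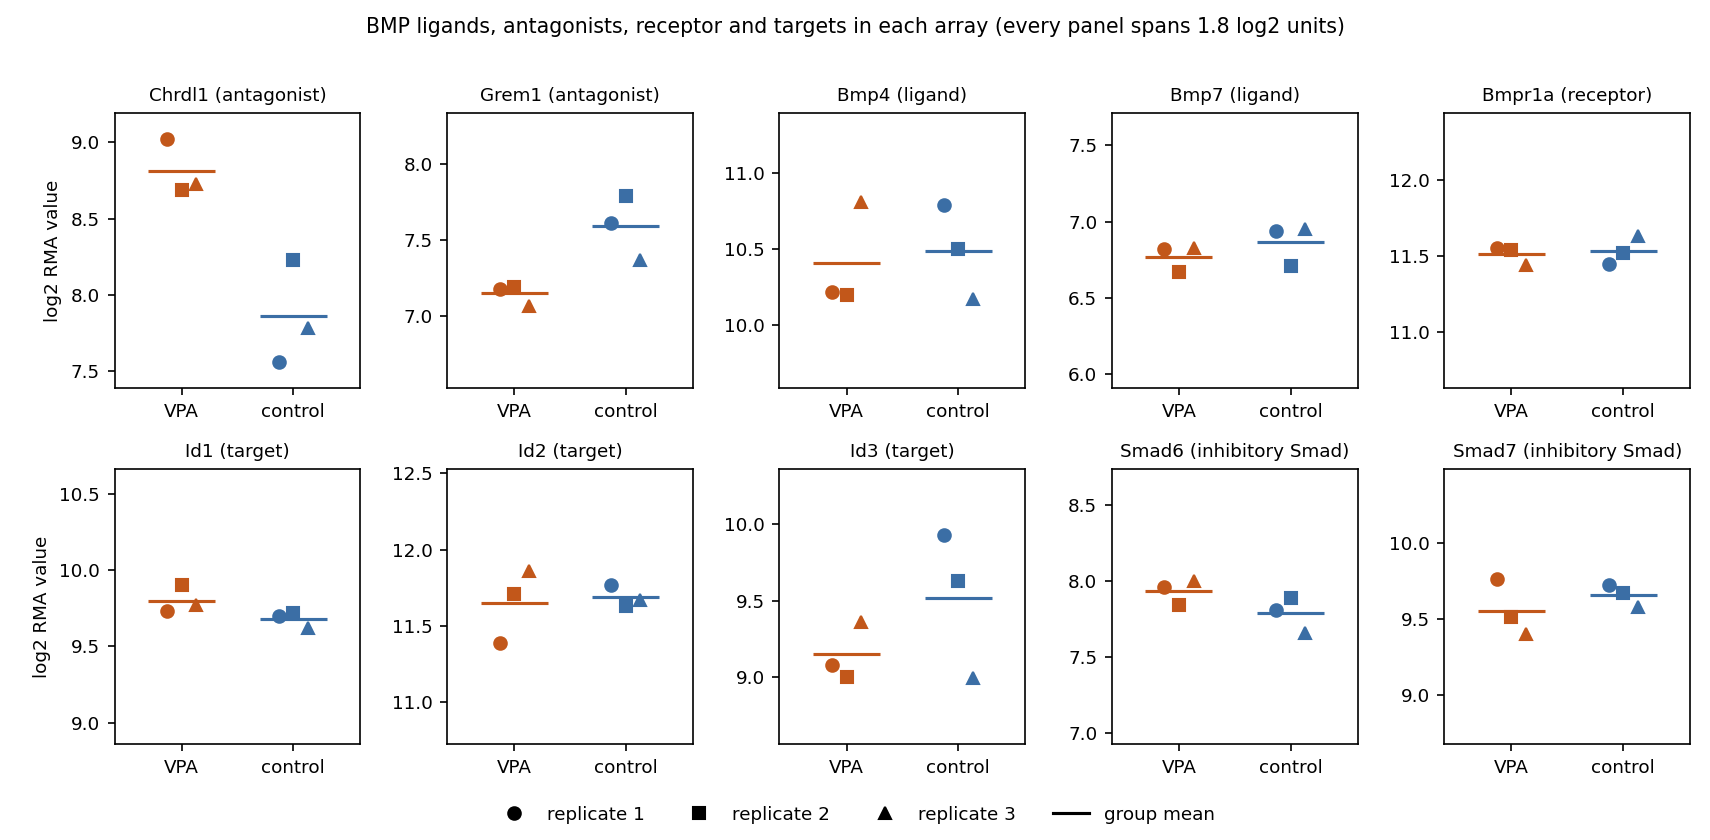
Log2 RMA values (vertical axis, log2 scale) of the 10 BMP genes in each of 3 VPA and 3 control arrays, with a symbol for each replicate number and a line at the group mean. The groups do not overlap in Chrdl1, Grem1 and Id1, while in Id3 and Bmp4 the control arrays alone span 0.94 and 0.62.

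The ligands showed no such separation. Bmp4 (probe set 10419261; chromosome 14, 46383525 to 46390669), a ligand of BMPR1A that both antagonists bind, had log2 values of 10.22, 10.20 and 10.81 in the VPA arrays, against 10.79, 10.50 and 10.17 in the control arrays. The highest and the lowest of the 6 values were VPA replicate 3 and control replicate 3. VPA replicates 1 and 2 lay below control replicates 1 and 2, so the groups overlapped. The log2 difference was -0.08 (SE 0.191, 95% interval from -0.51 to 0.35, n = 3 each). Bmp7 (probe set 10490129; chromosome 2, 172868012 to 172940321), a ligand of epithelial and kidney development, had log2 values of 6.82, 6.67 and 6.83 in the VPA arrays, against 6.94, 6.71 and 6.95 in the control arrays. Replicate 2 was the lowest in either group, and the difference was -0.09 (SE 0.0989). The Bmp7 values lay below the array medians.

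Bmpr1a (probe set 10418927; chromosome 14, 34411061 to 34503336) encodes a type I receptor kinase for BMP2 and BMP4. It had the smallest difference of the set, with log2 values of 11.55, 11.54 and 11.44 in the VPA arrays, against 11.45, 11.52 and 11.63 in the control arrays. The groups overlapped, and the log2 difference was -0.02 (SE 0.0870). Its 95% interval, from -0.22 to 0.17, leaves room for at most a 1.13-fold higher or 0.859-fold level with VPA.

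The Id genes showed no common direction. Id1 (probe set 10477169; chromosome 2, 152736251 to 152737410), a widely used reporter of Smad1 and Smad5 activity, had log2 values of 9.73, 9.90 and 9.77 in the VPA arrays, against 9.70, 9.72 and 9.62 in the control arrays. The VPA arrays all lay above the control arrays, but VPA replicate 1 and control replicate 2 all but touched. The difference was 0.12 (SE 0.0864, 95% interval from -0.07 to 0.32). Id2 (probe set 10399691; chromosome 12, 25093799 to 25096092), which also binds the retinoblastoma protein, had log2 values of 11.39, 11.71 and 11.86 in the VPA arrays, against 11.77, 11.63 and 11.67 in the control arrays. The VPA arrays enclosed the control arrays on either side, and the difference was -0.04 (SE 0.122, 95% interval from -0.31 to 0.23).

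Id3 (probe set 10509163; chromosome 4, 136143822 to 136145392), whose promoter window above holds a pair of Smad boxes, was the most variable gene of the set among the control arrays. Its log2 values were 9.08, 9.0 and 9.36 in the VPA arrays, against 9.93, 9.63 and 8.99 in the control arrays. Control replicates 1 and 2 lay above all VPA arrays and control replicate 3 lay at their lower end, so the groups overlapped. The difference was -0.37 (SE 0.208, 95% interval from -0.84 to 0.10), with means of 9.15 ± 0.19 in VPA and 9.52 ± 0.48 in control arrays (SD, n = 3 each). It was -0.63 without control replicate 3 and -0.16 without control replicate 1. The range of 0.94 among the control arrays exceeded that of 99.4% of genes, whose median control range was 0.22.

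The inhibitory Smads differed little and in opposite directions. Smad6 (probe set 10594418; chromosome 9, 63953076 to 64022085), which competes with Smad4 for Smad1, had log2 values of 7.96, 7.84 and 8.0 in the VPA arrays, against 7.81, 7.89 and 7.66 in the control arrays. VPA replicates 1 and 3 lay above all controls and VPA replicate 2 lay among them, and the difference was 0.15 (SE 0.0938, 95% interval from -0.06 to 0.36). Smad7 (probe set 10456745; chromosome 18, 75367365 to 75395935), which recruits ubiquitin ligases to the receptors of both the BMP and the TGF-beta branch, had log2 values of 9.76, 9.51 and 9.40 in the VPA arrays, against 9.72, 9.67 and 9.58 in the control arrays. VPA replicate 1 was the highest of the 6 and the other two VPA arrays the lowest, and the difference was -0.10 (SE 0.107, 95% interval from -0.34 to 0.14).

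**Figure D2:**
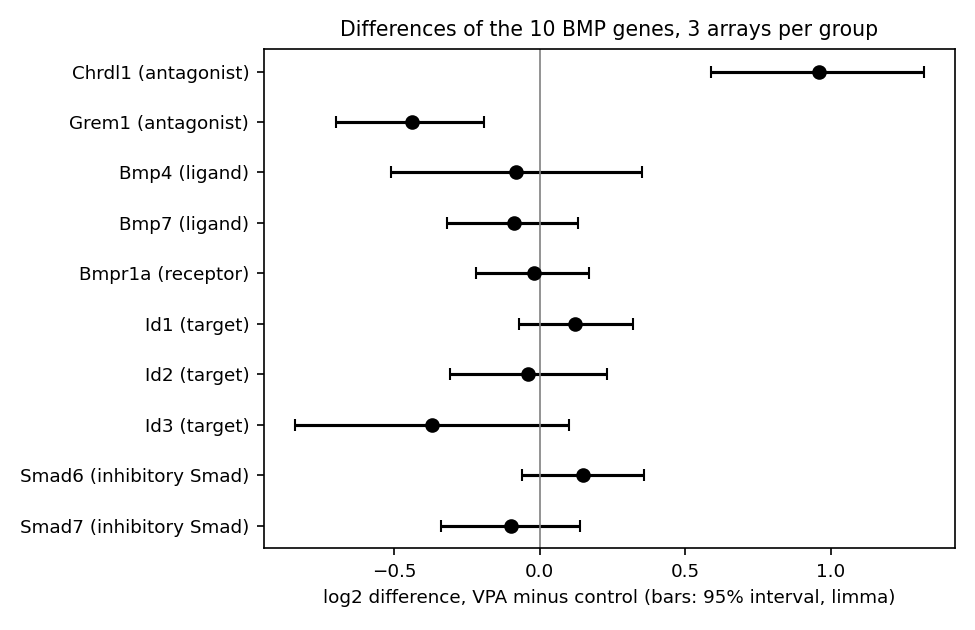
Log2 difference, VPA minus control (horizontal axis, log2 scale), of each of the 10 genes, with 3 arrays per group and bars for the 95% interval from limma. Chrdl1 lies at 0.96 and Grem1 at -0.44, and the intervals of the other 8 genes include 0.

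Counted over the set, 3 genes were higher and 7 lower with VPA, while 41.4% of all genes were higher. The median difference was -0.060, against -0.035 over all genes. At an adjusted p under 0.05 over all 19938 genes, limma called 2.34% of genes (1.71% higher and 0.632% lower with VPA), and 1 of the 10, Chrdl1, by which the set was chosen, was among them. The groups did not overlap in 3 of the 10 genes, 2 higher and 1 lower with VPA, against 23.1% of all genes. Nothing is read from these counts, since the same contrast chose the set. The difference of Chrdl1 in these same arrays chose the set, so its call is no independent test of the gene. That call was kept in 10 of 16 alternative analyses and lost in 6. Among the 6 were those without VPA replicate 1, VPA replicate 2, control replicate 1 or control replicate 3, and that with all probe sets. The Chrdl1 difference lay between 0.81 and 1.14 whichever single array was left out, and that of Grem1 between -0.55 and -0.34. Bmp4, at -0.28 to 0.07, Id2, at -0.14 to 0.09, and Bmpr1a, at -0.06 to 0.02, took either sign.

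**Figure D3:**
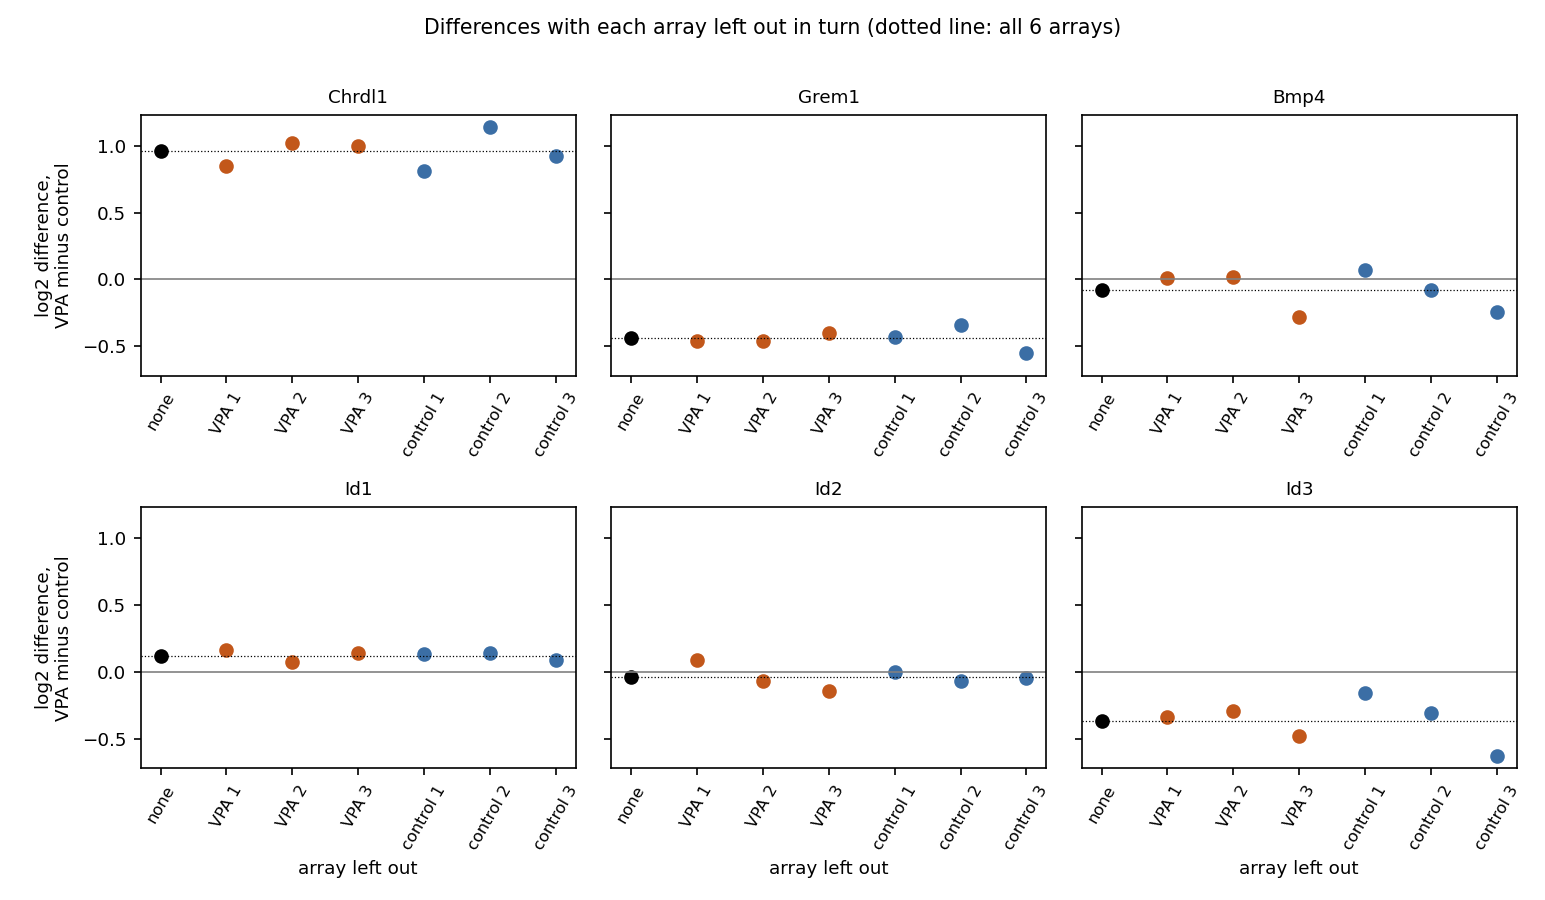
Log2 difference, VPA minus control (vertical axis, log2 scale), of 6 genes with all 6 arrays (black) and with each array left out in turn (orange for VPA arrays, blue for control arrays). Chrdl1 stays above 0 and Grem1 and Id3 below it in all 7 points, while Bmp4 and Id2 lie on both sides of 0.

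Within the groups, Id3 and Bmp4 ranked the arrays alike. In both genes the VPA arrays stood in the order replicate 2, 1 and 3 from low to high, and the control arrays in the order replicate 3, 2 and 1. This was noticed after the values were seen. Of the other genes of the table, 688 (3.45%) showed the order of Bmp4 in both groups, and Id3 was the only one of the 9 other genes of the set among them. Genes were also ranked by likeness to Chrdl1, leaving out predicted or clone-named genes, olfactory and vomeronasal receptor genes and small RNA genes. By Pearson correlation over the 6 arrays, which the VPA and control groups set apart, the genes most like Chrdl1 were Ppp1r14a, Mzt2 and Tmem120b, each at 0.995. Those most opposed were Scara5 at -0.995 and Jaml at -0.993. These values describe likeness only, as 6 arrays in a pair of groups allow no test of it, and the log2 differences of the genes were 0.22, 0.38, 0.42, -0.28 and -0.24.

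The rest of the pathway was set beside these genes through lists drawn up by role. Of 78 measured genes, 1 rose with VPA, 0 fell and 77 did not pass limma's test over all genes, against 2.34% of all genes called. At an unadjusted p under 0.05 there were 3 higher and 8 lower, where 18.1% of all genes reached it in either direction. The groups did not overlap in 18 (23.1%, as over all genes). The median difference of the 78 genes was -0.034, close to that of all genes. The gene that rose was Pdcd4, at 9.82, 9.85 and 9.67 in the VPA arrays, against 9.31, 9.43 and 9.29 in the control arrays. This was a 1.35-fold increase (log2 0.43, SE 0.0889, n = 3 each, limma adjusted p = 0.0409), and all VPA arrays lay above all control arrays. Pdcd4 encodes an inhibitor of the translation factor eIF4A and is not a core component of BMP signalling. Its call ended when VPA replicate 1, VPA replicate 2, control replicate 1 or control replicate 3 was left out (adjusted p 0.149, 0.157, 0.153 and 0.129).

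Among the other 13 ligands none passed. Of these, 3 had higher and 10 lower values with VPA (23.1% higher, against 41.4% of all genes). Bmp3, which opposes other BMPs, differed by -0.29 and Bmp2, a close relative of Bmp4, by -0.32 (limma adjusted p 0.116 and 0.147). Bmp2 lay at 4.99, 5.16 and 5.27 in VPA against 5.55, 5.33 and 5.49 in control arrays, well below the array medians. Among 18 other antagonists and extracellular modulators none passed, with 8 higher and 10 lower. Fstl3, a follistatin-like protein that binds activin, lay at 9.28, 9.06 and 8.82 in the VPA arrays, against 8.45, 8.67 and 8.50 in the control arrays (difference 0.51, adjusted p = 0.0667). Nbl1, an antagonist of the gremlin family, lay at 8.73, 8.61 and 8.94 in the VPA arrays, against 9.01, 9.26 and 9.23 in the control arrays (difference -0.40, adjusted p = 0.1). In both of these the groups were apart, Fstl3 upwards and Nbl1 downwards. The chordin genes nearest in name to Chrdl1 differed by 0.25 for Chrd and by -0.25 for Chrdl2 (SE 0.117 and 0.171), and neither passed (adjusted p 0.299 and 0.462).

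Of 11 other receptors and co-receptors none passed. Acvrl1, a type I receptor for BMP9 and BMP10 best known in endothelium, differed by -0.30 and Rgma, a co-receptor, by 0.24 (limma adjusted p 0.13 and 0.408). The type II receptor gene Bmpr2 differed by 0.10 and the pseudoreceptor gene Bambi by 0.17 (SE 0.0905 and 0.103). The Smads that carry the signal differed by 0.11 at most on the log2 scale, with Smad1 at -0.11, Smad5 at -0.10, Smad9 at 0.02 and Smad4 at 0.10 (SE 0.0985, 0.0916, 0.0810 and 0.0916). Of 18 other target genes none passed, with 11 higher and 7 lower. The transcription factor gene Atoh8 lay at 9.71, 9.82 and 10.19 in the VPA arrays, against 10.47, 10.40 and 10.22 in the control arrays (difference -0.46, adjusted p = 0.109). Hamp, the hepcidin gene, differed by -0.48 (adjusted p = 0.124). Its values of 4.23, 4.46 and 4.37 in the VPA arrays, against 4.67, 4.65 and 5.20 in the control arrays, lay well below the array medians. The fourth Id gene, Id4, lay at 10.22, 10.20 and 9.81 in the VPA arrays, against 9.78 and 9.79 in control replicates 2 and 3. Control replicate 1 lay between VPA replicates 3 and 2, so the groups overlapped, and the difference was 0.22 (SE 0.125, adjusted p = 0.383).

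The E protein genes, whose products the Id proteins bind, were lower in all 3 cases without passing. Tcf4 differed by -0.19, Tcf12 by -0.12 and Tcf3 by -0.06 (limma adjusted p 0.284, 0.467 and 0.772). In Tcf4 and Tcf12 the VPA arrays all lay below the control arrays, as they did in 12% of all genes. Of all 19938 genes, 11684 were lower with VPA. In bulk RNA such as this, fewer cells of a type and less RNA per cell cannot be told apart.

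**Figure D4:**
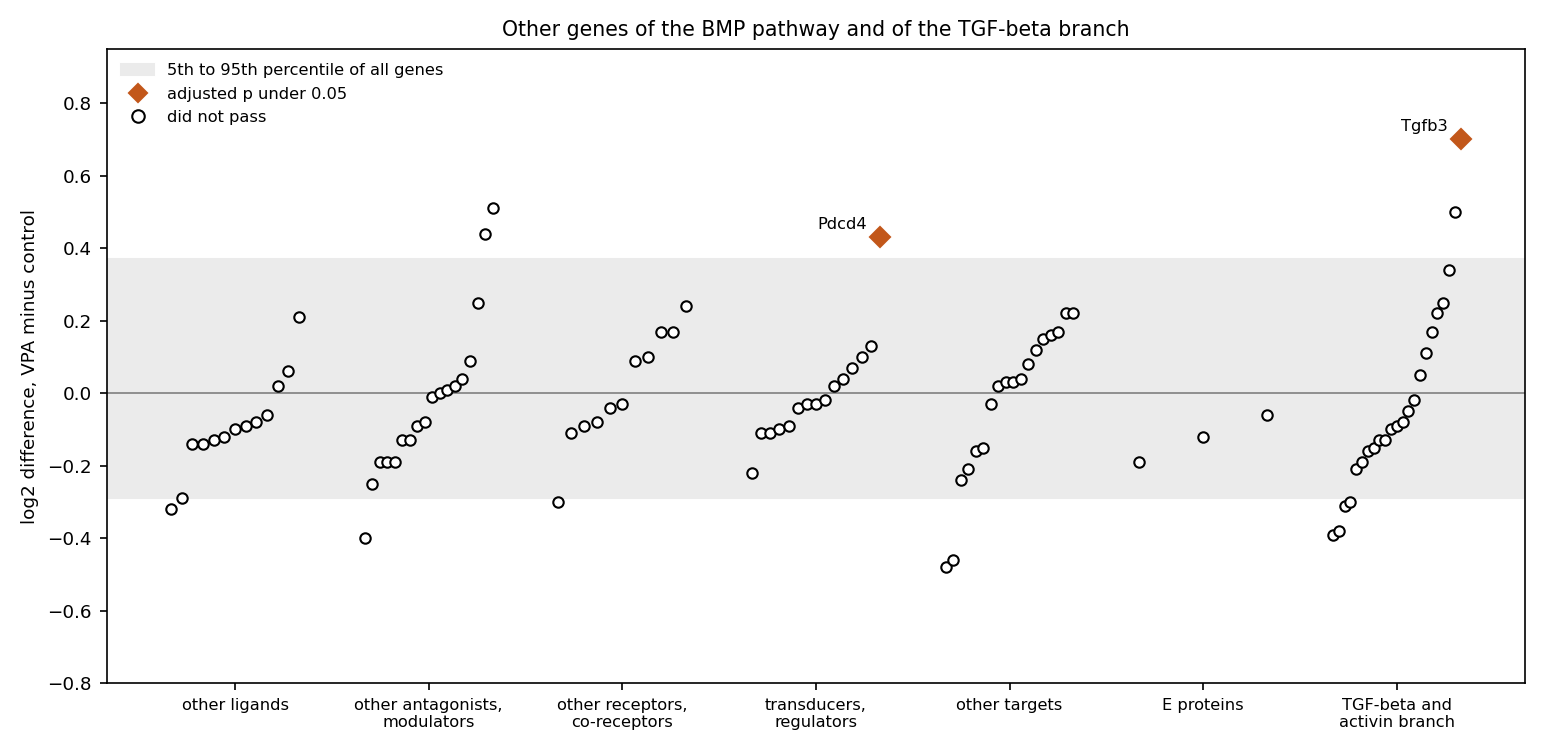
Log2 difference, VPA minus control (vertical axis, log2 scale), of the other BMP pathway genes by role and of the TGF-beta and activin branch, with a point for each gene, filled diamonds for an adjusted p under 0.05 and a grey band from the 5th to the 95th percentile of all genes (-0.29 to 0.37). Pdcd4 at 0.43 and Tgfb3 at 0.70 are the 2 genes that passed.

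The TGF-beta and activin branch shares Smad4 and Smad7 with BMP signalling. Of 23 measured genes, 1 rose, 0 fell and 22 did not pass, against 2.34% of all genes called. The gene that rose was Tgfb3, a TGF-beta ligand, at 11.05, 11.13 and 10.97 in the VPA arrays, against 10.32, 10.51 and 10.23 in the control arrays. The groups lay far apart relative to their spread, at 1.62-fold (log2 0.70, SE 0.0989, n = 3 each, limma adjusted p = 0.0139). The call ended when any one of VPA replicates 1 and 2 and control replicates 1 and 3 was left out (adjusted p 0.058, 0.0608, 0.0672 and 0.0534). The other TGF-beta ligands differed by 0.25 for Tgfb1 and by -0.31 for Tgfb2 (adjusted p 0.303 and 0.203). The groups did not overlap in 10 of the 23 genes (43.5%), 3 higher and 7 lower with VPA, against 23.1% of all genes (11.1% higher and 12% lower).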

How the data were processed

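Each sample was hybridised as biotin-labelled total RNA, per the labels' protocols. The deposited log2 values are RMA values from Affymetrix Expression Console, as the submitters' processing notes name them. RMA quantile-normalizes the arrays, so a shift of most transcripts would not show, and the notes give no version or genome build. Samples were grouped by title and described as biological replicates, and no label names separate cultures, so p-values measure the spread between these samples.

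Of 35556 probe sets, 21789 had exactly 1 gene symbol, 1621 had several and 12146 were not named. Symbols were looked up by Entrez identifier, which matched 21698. The probe set with the highest mean over the 6 arrays stood for each of 19938 genes, and each of the 10 BMP genes had 1 probe set. Gene coordinates are those of RefSeq on GRCm38.p6. VPA was set against control for all genes in 1 model with limma 3.58.1 (lmFit, eBayes; R 4.3.3) on group alone. Tests were two-sided and adjusted after Benjamini and Hochberg over all genes, and the fit was tested on simulated data. No filter was set. The precision is limited by 3 arrays per group. Gene and marker lists were written by role, and some of their genes are not reported here. From each list up to 3 called genes a direction were named, or the 2 of lowest p. Other genes were named after their values were seen. The members and lists were chosen with earlier results of these data known. Alternatives were a filter on low values, other scalings and priors, array weights, other handling of probe sets, the replicate number as a block and arrays left out. Same-numbered VPA and control arrays deviated from their group means with correlations across genes of 0.084, 0.451 and 0.284. Arrays of different number had correlations from -0.429 to 0.2. The titles give only a replicate number, so the arrays were not taken as pairs in the main fit. The same-numbered correlations were nevertheless all positive, and whether the arrays were paired was not settled.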

Additional observations from a re-analysis of the deposited data

How the results depend on the processing

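The counts rested on the processing, and the cause was not tested. Over all genes, 467 were called, against 1199 with the replicate block, 714 with array weights, 2 of 35556 with all probe sets tested, 0 with an ordinary t-test (2898 at an unadjusted p under 0.05) and 20 to 815 with one array left out. Without control replicate 2 and VPA replicate 3, an alternative chosen after seeing the data, 1349 were called. Among the other BMP pathway genes 1 was called, against 2 with a second quantile normalization, a trended and robust prior or array weights, 4 with the replicate block, 0 with the ordinary t-test or all probe sets (12 and 8 at an unadjusted p under 0.05), 0 to 5 with one array left out and 4 without both arrays. In the TGF-beta and activin branch 1 was called, against 2 with the filter on low values or array weights, 3 with the trended and robust prior, 4 with the replicate block, 0 with the ordinary t-test or all probe sets (5 and 6 at an unadjusted p under 0.05), 0 to 2 with one array left out and 2 without both arrays. Both counts were 0 when VPA replicate 1, VPA replicate 2, control replicate 1 or control replicate 3 was left out (9 to 10 and 5 to 7 genes at an unadjusted p under 0.05), and the pathway count was 5 without VPA replicate 3. Over the 16 alternatives Chrdl1, Grem1, Id1, Id3, Bmp7, Smad6 and Smad7 kept their sign, while Bmp4 and Bmpr1a kept it in 13 and Id2 in 14. Low values, such as those of Bmp7, carry no measure of signal over background.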

Other observations

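Some other pathway genes set single arrays apart, and they were picked after their values were seen. Bmper, which encodes a secreted BMP-binding protein, had log2 values of 11.89, 11.64 and 11.13 in VPA replicates 1, 2 and 3, against 11.01, 11.21 and 11.11 in the control replicates. VPA replicate 3 lay among the control arrays and the other 2 VPA arrays above them (difference 0.44, SE 0.169, limma adjusted p = 0.207). Hes1, a repressor gene shared with Notch signalling, lay at 11.00, 10.88 and 10.50 in the VPA arrays, against 10.98, 10.88 and 10.02 in the control arrays. Control replicate 3, the lowest array for Hes1, was also the lowest of the 6 for Bmp4, Id1, Id3 and Smad6. It was the highest of the 6 for Bmp7 and Bmpr1a, and lay between other arrays for Chrdl1, Grem1, Id2 and Smad7. How often it was the lowest over all genes was not counted.

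In the TGF-beta and activin branch, Inhba, the activin A subunit gene, lay at 8.45, 8.59 and 8.49 in the VPA arrays, against 8.0, 8.25 and 7.78 in the control arrays (difference 0.50, limma adjusted p = 0.0642). Tgif1, a corepressor gene of Smad2 and Smad3, lay at 9.87, 10.06 and 10.16 in the VPA arrays, against 10.47, 10.41 and 10.38 in the control arrays (difference -0.39, adjusted p = 0.0722). Neither passed, though the groups did not overlap in either.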
